A study of Mus musculus with 6 samples.

Results

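The genes described here are 45 mouse genes of the cell division cycle, read in astrocytes sorted from the brains of hyperglycemic and control mice. They were chosen by symbol and fall into 4 classes by the phase in which they act: 17 genes of the G1/S transition and DNA replication, 3 D-type cyclins, 20 genes of G2/M and mitosis, and 5 inhibitors of cyclin-dependent kinases (CDKs). The rule also required a read count above 0 in all 6 samples, and 45 of the 45 met it, among 22337 of the 45777 listed genes that did. The lowest count of any of the 45 in any sample was 91.

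Astrocytes came from male Aldh1l1-CreERT2; tdTomato fl/fl mice on a C57BL/6 background, in which tamoxifen starts expression of the red protein tdTomato in cells that use the promoter of the astrocyte gene Aldh1l1. By the study's methods all mice, controls included, were of this line, whereas the sample labels enter the genotype of both groups as WT. All received tamoxifen at 75 mg/kg for 5 days. At 8 weeks of age the STZ group received 1 intraperitoneal injection of streptozotocin (STZ, a toxin of insulin-producing beta cells) at 150 mg/kg, and the vehicle group received citrate buffer. TdTomato+ cells were sorted from brains 21 days later, and each of the 3 samples in each group was a pool of 3 mice. STZ-treated mice were kept in the study only if their fasting glucose had risen, so the drug and the high glucose cannot be told apart, nor can other effects of STZ. The p-values given below measure the spread between pools.

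A cell enters the cycle when D-type cyclins activate CDK4 and CDK6, which releases E2F transcription factors from the retinoblastoma protein. E2F then drives genes for nucleotide supply and for the loading of the MCM helicase on DNA. Genes of G2 and mitosis are held down in resting cells by the DREAM complex, which sits on a short element called the cell cycle genes homology region (CHR), and come on later through B-MYB and FOXM1. CDK inhibitors of the Cip/Kip and INK4 families oppose these steps. Most astrocytes of the healthy adult brain do not divide.

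Total counts per sample ran from 52529048 to 58749115. At these totals, 3 counts corresponded to 0.0511 to 0.0571 CPM (a gene's counts scaled to the sample total). The 45 genes lay far above this floor. CPM of single genes given below use the totals of the tested genes with a further scaling of each sample (TMM). The sorted cells carried astrocyte RNA: the summed level of 10 astrocyte markers ran from 6084.5 to 7071.4 FPKM (fragments scaled by transcript length and mapped reads) in vehicle samples and from 6395.0 to 7018.1 in STZ samples, and none was at 0. Other cell types were also visible. Choroid plexus and ependymal markers, led by Ttr, summed to 4296.6 FPKM in vehicle replicate 1 and to between 7026.1 and 12927.7 in the other 5 samples. In those 5 samples this sum was above the astrocyte sum, though barely in STZ replicate 2 (7026.1 against 7018.1). Ttr alone had a mean of 9151.7 FPKM, against 2294.5 for Aldoc, the leading astrocyte marker. The lists hold different genes, so these sums do not give shares of cells. Vehicle replicate 1 also stood apart from the other vehicle pools over all genes, with a chi-square per gene of 62.9 and 62.5 against them, where those differed from each other by 16.0. Differences between the groups are therefore also given without this sample.

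Promoters of many, though not all, of these genes hold known cell cycle elements. As examples 8 are printed, some of them of genes whose groups overlapped (Cdk1, Cdc20 and Mcm6). RefSeq windows (GRCm38.p6, 250 bases before to 50 after a start site) were at hand for 35 of the 45 genes, in 40 windows. The stretches run from 100 bases before to 50 after the start, 5′ to 3′ on the gene's strand, with capitals on motif matches. The motifs were the CHR, searched as TTTGAA and its variant form TTCGAA, the CCAAT box, and the E2F site, searched as TTCCCGC with the variant form TTCGCGC and as TTGCCGC with the variant form TTGGCGC. Each was searched on both strands, and a CCAAT box (its 5 letters) on the reverse strand can share letters with an E2F site. The first set shows 3 genes of mitosis, which are Ccnb2 on chr9:70421505-70421654 (reverse strand), Cdk1 on chr10:69352863-69353012 (reverse strand) and Cdc20 on chr4:118437294-118437443 (reverse strand).
Ccnb2: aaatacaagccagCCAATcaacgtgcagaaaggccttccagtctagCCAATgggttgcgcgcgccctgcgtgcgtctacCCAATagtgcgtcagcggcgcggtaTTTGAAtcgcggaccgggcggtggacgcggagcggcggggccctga
Cdk1: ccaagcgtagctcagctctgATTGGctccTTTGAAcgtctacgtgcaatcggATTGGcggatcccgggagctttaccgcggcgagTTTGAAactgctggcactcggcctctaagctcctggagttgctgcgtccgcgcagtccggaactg
Cdc20: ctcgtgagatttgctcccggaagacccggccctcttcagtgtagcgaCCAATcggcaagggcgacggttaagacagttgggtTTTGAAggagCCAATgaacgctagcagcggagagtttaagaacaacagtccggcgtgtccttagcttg

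Each of these 3 stretches held at least 1 CHR beside at least 2 CCAAT boxes. The second set shows 3 genes of replication, which are Mcm6 on chr1:128359656-128359805 (reverse strand), Rrm2 on chr12:24708154-24708303 (forward strand) and Pcna on chr2:132253131-132253280 (reverse strand).
Mcm6: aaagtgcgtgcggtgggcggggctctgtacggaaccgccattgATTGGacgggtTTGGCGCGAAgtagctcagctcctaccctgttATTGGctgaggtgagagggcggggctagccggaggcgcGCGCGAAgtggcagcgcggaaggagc
Rrm2: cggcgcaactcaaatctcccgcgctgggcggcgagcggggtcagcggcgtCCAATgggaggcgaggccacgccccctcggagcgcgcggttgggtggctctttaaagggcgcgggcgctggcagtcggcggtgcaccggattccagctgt
Pcna: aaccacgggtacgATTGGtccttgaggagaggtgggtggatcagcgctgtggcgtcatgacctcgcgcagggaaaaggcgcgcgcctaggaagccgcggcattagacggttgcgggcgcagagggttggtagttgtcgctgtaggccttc

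None of these 3 held a CHR, and in Mcm6 3 E2F matches were found, of which a pair overlapped. The third set shows the 2 CDK inhibitors with the smallest p-values, which are Cdkn1a on chr17:29090879-29091028 (forward strand), at the more upstream of its 2 annotated starts, and Cdkn2d on chr9:21291160-21291309 (reverse strand). For Cdkn1a the capitals mark a p53 response element, taken as 2 adjoining consensus decamers with at most 1 base off the consensus and none in the cores, on both strands. This search was added after the sequence had been seen.
Cdkn1a: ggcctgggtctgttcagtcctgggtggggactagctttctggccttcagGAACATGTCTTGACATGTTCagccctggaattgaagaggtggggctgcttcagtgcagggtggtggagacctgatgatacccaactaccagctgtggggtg
Cdkn2d: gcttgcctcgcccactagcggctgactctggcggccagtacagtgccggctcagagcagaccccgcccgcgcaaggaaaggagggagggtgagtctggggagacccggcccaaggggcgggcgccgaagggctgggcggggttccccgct

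Windows of Nusap1, Birc5, E2f1, Tyms and Ccne1 held none of these motifs. Over whole windows, a CHR was found in 12 of 16 windows of G2/M and mitosis genes (75%), in 2 of 16 windows of G1/S and replication genes (12.5%), and in none of 6 windows of CDK inhibitors, against 19.2% of all 32851 windows. E2F sites had the opposite split, with 11 of 16 G1/S windows (68.8%) and 3 of 16 G2/M windows (18.8%), against 9.57% of all windows. CCAAT boxes were in 87.5% of G2/M windows and 68.8% of G1/S windows, against 37.4% of all. The p53 element was in 1 of the 40 member windows, that of Cdkn1a, and in 0.0548% of all windows. A match describes the letters only.

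**Figure D1:**
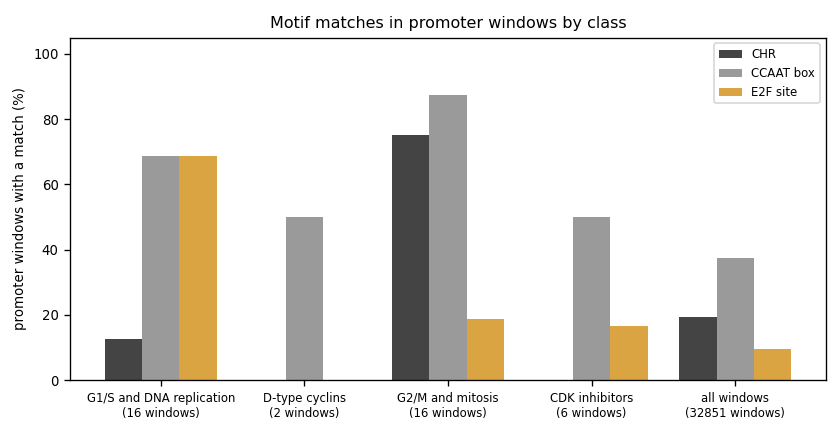
Bars give the percent of RefSeq promoter windows of 300 bases that hold at least 1 match to each motif, by class of gene and for all windows; classes with few windows have coarse steps. CHR matches are at 75% in G2/M and mitosis and 12.5% in G1/S and replication, and E2F matches at 18.8% and 68.8%.

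Per length, the classes differed in their median level, with a wide range inside each. The median level was 51.1 FPKM for D-type cyclins (Ccnd1 only 1.96), 19.8 for CDK inhibitors (Cdkn1b only 1.45), 5.05 for G1/S and replication genes and 3.96 for G2/M and mitosis genes. Ccnd3 had the highest mean (69.5 FPKM), followed by Cdkn1c (60.6), Ccnd2 (51.1) and Pcna (41.9). The order of these 4 is not firm, since Ccnd3 ranged from 57.1 to 82.7 FPKM over the samples and Cdkn1c from 30.6 to 89.9. At the other end, the mean was 0.72 FPKM for Bub1, 0.832 for Cdc6, 0.892 for Ccne2, 0.904 for Cenpe and 1.01 for Mki67. In such bulk samples, fewer cycling cells and less RNA per cycling cell cannot be told apart.

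**Figure D2:**
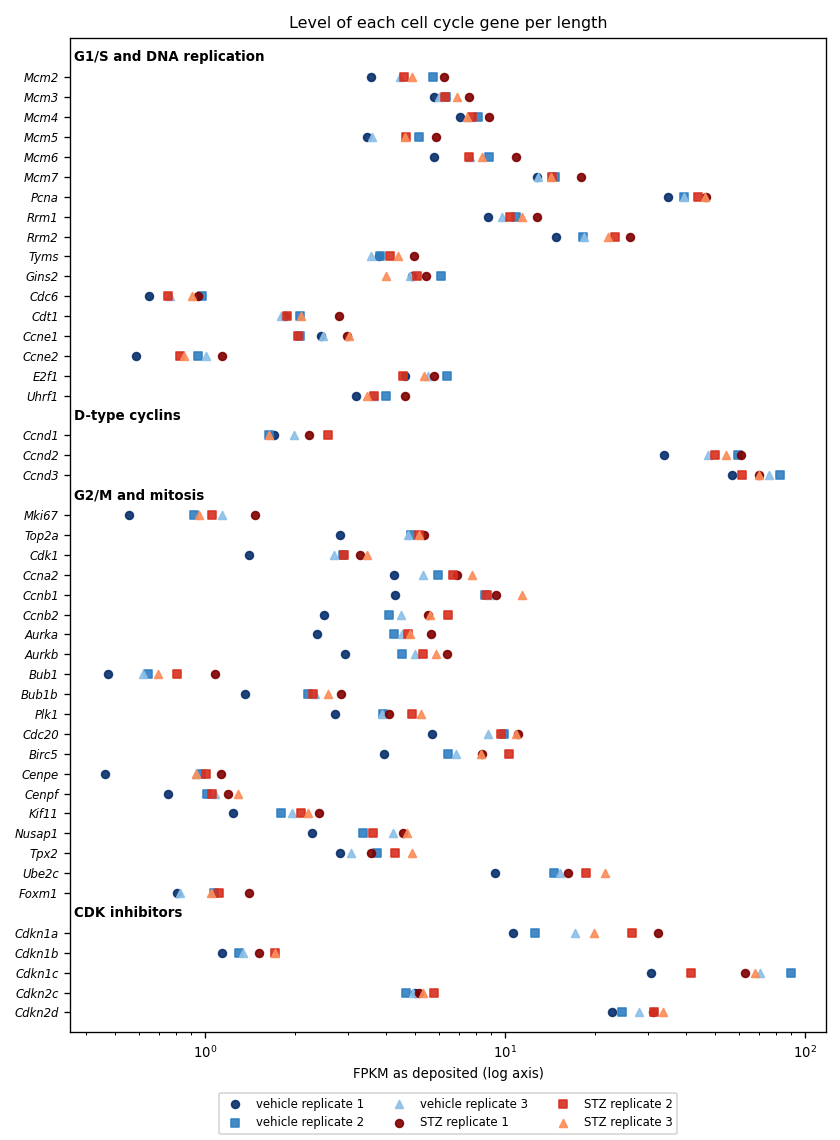
Each point is the FPKM of 1 gene in 1 sample as deposited, on a log axis, with vehicle samples in blue and STZ samples in red. Ccnd3, Cdkn1c, Ccnd2 and Pcna are on the right with means of 41.9 to 69.5 FPKM, and mitotic genes such as Bub1 and Mki67 are on the left near 1; the points of vehicle replicate 1 are the lowest of the 6 in all 20 G2/M and mitosis genes.

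The main comparison asks whether cell cycle transcripts differ in astrocytes of hyperglycemic mice. A gene was called with an edgeR quasi-likelihood adjusted p under 0.05, taken over all 22337 genes, and a fold change over 1.5. None of the 45 was called, and the lowest adjusted p was 0.272. Across all genes 5 were called, or 0.0224%. By DESeq2, run as the alternative, 1 of the 45 was called higher (Cdkn1a), where 0.654% of all genes were. Without adjustment, 6 of the 45 had p under 0.05, all with higher STZ means (Pcna, Rrm2, Ccna2, Ccnb2, Cdkn1a and Cdkn2d), and none had a lower one. Of all genes, 5.63% had such a p with a higher and 5.65% with a lower STZ mean. The log2 fold change was above 0 in 41 of the 45 genes, against 51.9% of all genes, and its median was 0.28 against 0.01. It was above 0 in 35 of the 45 without vehicle replicate 1, with a median of 0.13. These genes are expressed together in dividing cells, so they do not count as 45 separate observations.

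Over all 6 samples the largest class difference was in G2/M and mitosis genes. The STZ mean was higher in 20 of 20, and the median log2 fold change was 0.37, or 1.29-fold. None of the 20 was called by edgeR or by DESeq2, and 2 had an unadjusted p under 0.05. Log2 fold changes ran from 0.26 (Cenpf, a kinetochore protein) to 0.61 (Ccnb2). The mean log2 CPM of the 20 genes was 2.79, 3.46 and 3.47 in the vehicle samples and 3.69, 3.58 and 3.68 in the STZ samples. The STZ samples were thus close together and above all 3 vehicle samples, while vehicle replicate 1 lay far below the other vehicle samples. It was the lowest of the 6 samples in 20 of 20 genes, where it was the lowest in 25.6% of all genes. Without it, the median log2 fold change was 0.17, still with 20 of 20 above 0. The CDK inhibitors, at 0.23, then had the largest class median.

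Ccnb2, a B-type cyclin that activates CDK1 at entry to mitosis, had 4.20, 6.84 and 7.54 CPM in vehicle and 8.79, 10.4 and 9.12 CPM in STZ samples. All STZ values lay above all vehicle values. Its means were 6.19 ± 1.76 and 9.43 ± 0.837 CPM (SD, n = 3 samples each), a log2 fold change of 0.61 ± 0.232 (SE), with an edgeR p of 0.0324 and an adjusted p of 0.402. Without vehicle replicate 1 the log2 fold change was 0.39 and the p 0.0475. Ccna2, the cyclin of S phase and G2, had 15.7, 21.9 and 19.4 CPM in vehicle and 24.1, 23.6 and 27.6 CPM in STZ samples, again with no overlap. Its log2 fold change was 0.40 ± 0.138, with an edgeR p of 0.0205 and an adjusted p of 0.365, and 0.28 without vehicle replicate 1. Ccna2 overlaps Exosc9 on the genome, and the strand setting of the counting was not given in the sources used here, so reads of the overlap cannot be told apart.

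The kinase at the centre of mitotic entry, Cdk1, had 6.68, 13.6 and 12.6 CPM in vehicle and 14.7, 13.2 and 15.9 CPM in STZ samples. Here STZ replicate 2 lay below vehicle replicate 2, and the groups overlapped. The log2 fold change was 0.41 ± 0.255, with an edgeR p of 0.147, and 0.15 without vehicle replicate 1. Mki67, the proliferation marker Ki-67, had 5.88, 9.60 and 11.9 CPM in vehicle and 15.2, 10.8 and 9.75 CPM in STZ samples. Only STZ replicate 1 lay above the vehicle range. Its log2 fold change was 0.38 ± 0.28 (edgeR p 0.208) and 0.14 without vehicle replicate 1. Top2a, the topoisomerase that untangles chromosomes, had 16.0, 27.3 and 26.7 CPM in vehicle and 28.9, 28.0 and 28.4 CPM in STZ samples. Its groups did not overlap, yet its log2 fold change of 0.28 became 0.07 without vehicle replicate 1.

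The groups also did not overlap in Aurkb and Birc5 of the chromosomal passenger complex, in the checkpoint kinase Bub1, in the spindle motor Kif11 and in Ube2c, the ubiquitin-conjugating enzyme of the anaphase-promoting complex. With Ccna2, Ccnb2 and Top2a this makes 8 of 20 genes with all STZ samples above all vehicle samples, where 8.64% of all genes had this order, and 9.85% the reverse order, which none of the 45 had. Ube2c had 9.40, 14.6 and 15.4 CPM in vehicle and 15.6, 18.0 and 21.1 CPM in STZ samples, with a log2 fold change of 0.47 ± 0.206 (edgeR p 0.0518), and 0.28 (p 0.104) without vehicle replicate 1. Aurkb had 6.36, 9.83 and 10.8 against 13.1, 11.03 and 12.5 CPM, with a log2 fold change of 0.44 ± 0.208 (edgeR p 0.0674), and 0.24 (p 0.133) without that sample. Bub1 had 2.26, 3.05 and 2.93 against 4.83, 3.64 and 3.18 CPM, with a log2 fold change of 0.50 ± 0.24 (edgeR p 0.0722), and 0.37 without it. Birc5 and Kif11 had log2 fold changes of 0.43 and 0.36, and both 0.19 without it. In each of these genes the closest pair of values from the 2 groups differed by less than the vehicle samples differed among themselves.

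The other 10 genes of the class overlapped between groups and had log2 fold changes of 0.26 to 0.38. They are the cyclin Ccnb1, the kinases Aurka, Bub1b and Plk1, the anaphase activator Cdc20, the kinetochore genes Cenpe and Cenpf, the spindle genes Nusap1 and Tpx2, and Foxm1, a transcription factor of this class. These 10 ran from 0.04 (Cenpe) to 0.26 (Foxm1) without vehicle replicate 1. Marker levels of other cell types also differed between the groups. Markers of neural stem cells and neuroblasts, which divide in the adult brain, summed to 237.3, 343.9 and 291.5 FPKM in vehicle and 407.7, 357.7 and 347.8 in STZ samples, with vehicle replicate 1 again the lowest. This sum was led by Stmn1, at a mean of 221.9 FPKM. Of the 12 markers, 10 had a log2 fold change above 0, or 7 without vehicle replicate 1. Endothelial markers summed to 15.5 to 52.9 FPKM in vehicle and 47.5 to 94.4 in STZ samples. All 8 had a log2 fold change above 0, also without vehicle replicate 1, where 51.9% of all genes did over all samples. Their median log2 fold change was 1.18, or 0.90 without that sample, and none was called by edgeR. Pericyte and smooth muscle markers summed to 21.99 to 28.4 against 37.4 to 48.2. The median log2 fold change of this list was 1.02, or 0.72 without vehicle replicate 1. Of its 7 genes, 6 had a log2 fold change above 0. The leading gene Pdgfrb, at a mean of 13.75 FPKM, did not (−0.08). Oligodendrocyte precursor markers, of dividing cells too, summed to 135.2 to 171.0 against 119.6 to 129.6. The sum of the last list, led by Olig1 at a mean of 97.95 FPKM, went the opposite way to the mitotic genes. It was highest in vehicle replicate 1. Of its 6 tested genes, 4 had a log2 fold change below 0 and 2 above. The part of these cells in the result was not tested.

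**Figure D3:**
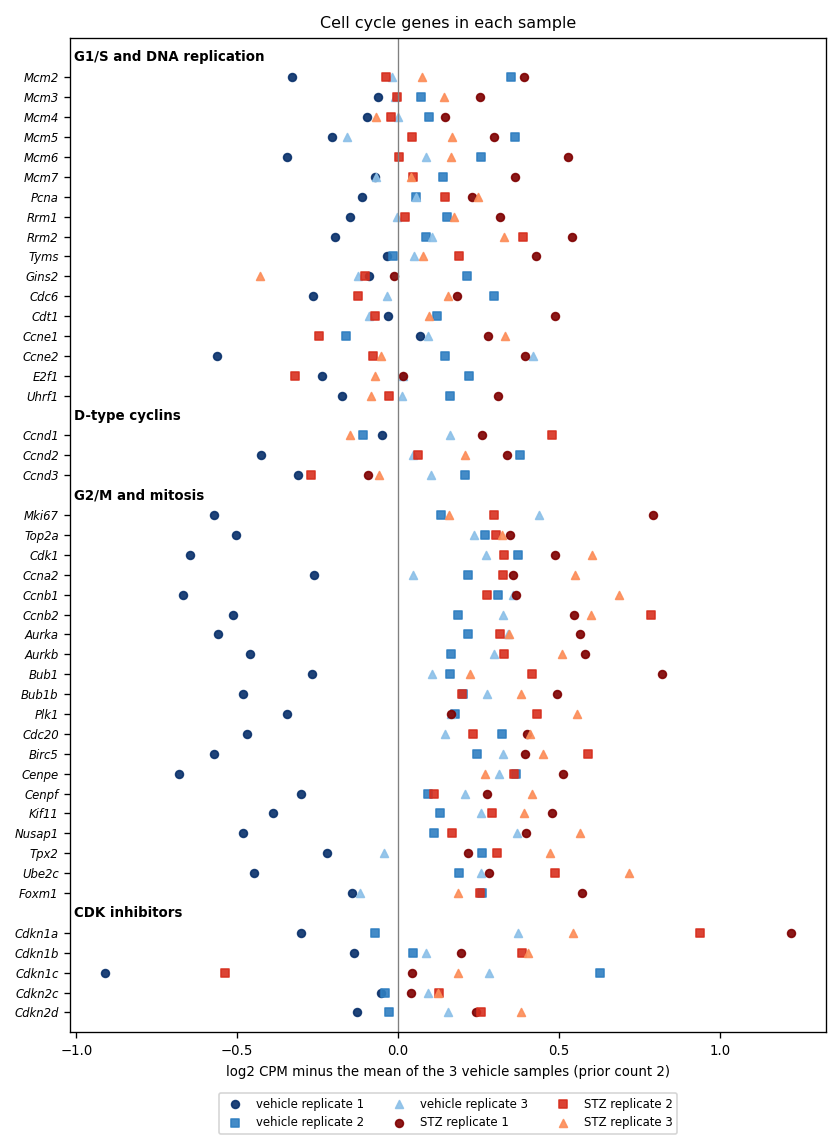
For each of the 45 genes, the 6 points are log2 CPM (prior count 2) minus the mean of the 3 vehicle samples, with vehicle samples in blue and STZ samples in red. Vehicle replicate 1 is the leftmost point in 20 of 20 G2/M and mitosis genes and in 40 of 45 genes in all, while the other vehicle samples mix with the STZ samples in most genes.

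G1/S and replication genes differed less. The STZ mean was higher in 15 of 17, the median log2 fold change was 0.14, none of the 17 was called, and 2 had an unadjusted p under 0.05. The mean log2 CPM of the class was 3.69, 4.01 and 3.88 in vehicle and 4.16, 3.85 and 3.94 in STZ samples, so that the groups overlapped. STZ replicate 1 was the highest sample in 10 of the 17 genes and vehicle replicate 1 the lowest in 13. The median was 0.07 without vehicle replicate 1, with 10 of 17 above 0, and 0.04 without STZ replicate 1.

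Rrm2, the regulated subunit of ribonucleotide reductase, which makes deoxynucleotides, had 35.2, 42.8 and 43.4 CPM in vehicle and 58.6, 52.7 and 50.7 CPM in STZ samples. The lowest STZ value was above the highest vehicle value. Its means were 40.5 ± 4.57 and 54.0 ± 4.12 CPM (SD, n = 3 each), a log2 fold change of 0.42 ± 0.104, with an edgeR p of 0.0044, an adjusted p of 0.283 and a DESeq2 adjusted p of 0.0588. Without vehicle replicate 1 the log2 fold change was 0.32 and the p 0.00735. Its partner Rrm1 had a log2 fold change of 0.17 ± 0.108 (edgeR p 0.154) with overlapping groups, and 0.10 without that sample.

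Pcna, the clamp that holds DNA polymerase on DNA, had 48.1, 54.0 and 54.0 CPM in vehicle and 60.9, 57.5 and 61.7 CPM in STZ samples. The groups did not overlap, and the log2 fold change was 0.21 ± 0.0756, with an edgeR p of 0.0273 and an adjusted p of 0.393, and 0.15 without vehicle replicate 1. A pseudogene, Pcna-ps2, is listed beside it with 195 counts in vehicle replicate 1, and reads shared by the copies are uncertain. Tyms, the thymidylate synthase, had 14.9, 15.1 and 15.8 against 20.6, 17.4 and 16.1 CPM. Here too the groups did not overlap, but STZ replicate 3 was close to vehicle replicate 3, and the edgeR p was 0.0813 for a log2 fold change of 0.24, or 0.22 without vehicle replicate 1.

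The 6 subunits of the MCM helicase had log2 fold changes of 0.02 (Mcm4) to 0.23 (Mcm6), with edgeR p from 0.213 to 0.845, and overlapping groups in each. Mcm6 had 19.4, 29.5 and 26.2 CPM in vehicle and 35.6, 24.7 and 27.7 CPM in STZ samples, so that STZ replicate 2 was below 2 of the vehicle samples. Mcm2, Mcm3, Mcm5 and Mcm7 lay at 0.13, 0.13, 0.15 and 0.15. The 6 subunits without vehicle replicate 1 ran from −0.03 (Mcm2 and Mcm4) to 0.12 (Mcm7), with Mcm6 at 0.07. The factors that load or fire the helicase were no further apart: Cdc6 had 0.06, Cdt1 0.19 and Gins2 −0.18 ± 0.191, and −0.07, 0.17 and −0.23 without that sample. The cyclins of S phase entry, Ccne1 and Ccne2, had 0.14 and 0.05, and 0.17 and −0.19 without it. E2f1, the founding factor of the E2F family, had 13.7, 18.9 and 16.3 CPM in vehicle and 16.4, 12.9 and 15.4 CPM in STZ samples, with a log2 fold change of −0.13 ± 0.152 (edgeR p 0.417), and −0.24 without vehicle replicate 1. Uhrf1, which maintains DNA methylation after replication, had 0.07, and −0.02 without it.

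Set side by side within each sample, the mean log2 CPM of the G2/M genes minus that of the G1/S genes was −0.90, −0.55 and −0.41 in vehicle and −0.47, −0.27 and −0.26 in STZ samples. The mitotic class was therefore higher relative to the replication class in STZ samples on average, by 0.29 on the log2 scale, or by 0.15 without vehicle replicate 1. STZ replicate 1 lay between vehicle replicates 2 and 3, and vehicle replicate 1 had the lowest value. STZ replicate 1 had the highest mean of both classes. No test was made of this difference, since it is a score over chosen genes.

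**Figure D4:**
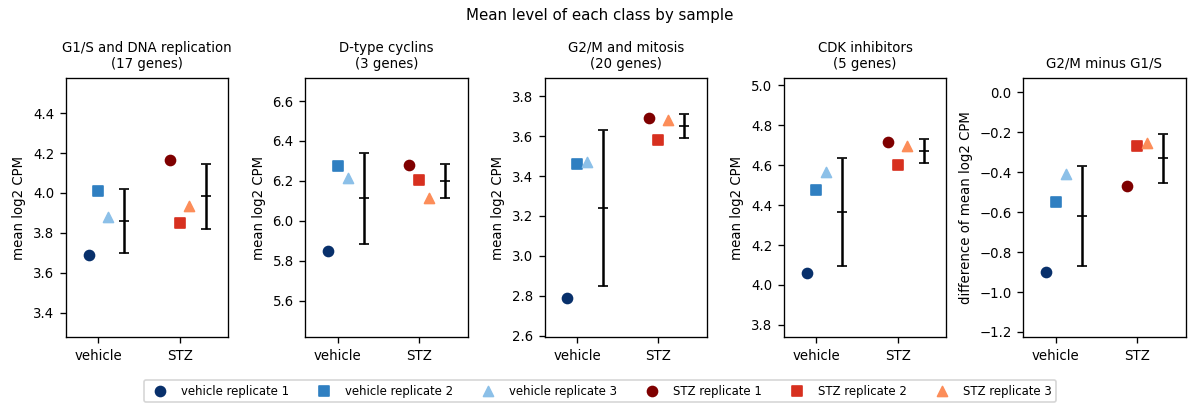
Points give the mean log2 CPM of each class in each sample, and the last panel the G2/M mean minus the G1/S mean; bars are the mean ± SD of 3 samples, and the 5 panels span equal ranges on their vertical axes. In G2/M and mitosis the STZ samples lie at 3.58 to 3.69 and the vehicle samples at 2.79, 3.46 and 3.47.

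The D-type cyclins, which link growth signals to the cycle, showed no difference that passed. Ccnd2, the most counted of the 3, had 218.5, 381.5 and 303.4 CPM in vehicle and 370.9, 306.6 and 339.3 CPM in STZ samples. All STZ values lay within the vehicle range. Its log2 fold change was 0.17 ± 0.188 (95% interval −0.27 to 0.61). Ccnd1 had 7.05, 6.76 and 8.17 against 8.76, 10.2 and 6.59 CPM, a log2 fold change of 0.22 ± 0.195 with overlapping groups, and 0.18 without vehicle replicate 1. Ccnd3 had 124.0, 177.9 and 165.0 against 144.2, 127.5 and 147.6 CPM, a log2 fold change of −0.15 ± 0.136 (edgeR p 0.292). Vehicle replicate 1 was the lowest sample for Ccnd2 and Ccnd3. Without it Ccnd2 was at −0.02 and Ccnd3 at −0.30, the latter with an edgeR p of 0.0117.

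The CDK inhibitors held the gene with the largest difference of the 45. Cdkn1a encodes p21, a Cip/Kip inhibitor and a well-known target of p53. It had 22.2, 26.1 and 35.5 CPM in vehicle and 64.0, 52.6 and 39.9 CPM in STZ samples. The groups did not overlap, although STZ replicate 3 was close to vehicle replicate 3. The means were 27.9 ± 6.85 and 52.2 ± 12.03 CPM (SD, n = 3 each), which is 1.87-fold or a log2 fold change of 0.90 ± 0.215 (95% interval 0.40 to 1.40). The edgeR p was 0.00347 and the adjusted p 0.272, while the DESeq2 adjusted p was 0.00271, so the call depends on the tool. Without vehicle replicate 1 the log2 fold change was 0.76 (edgeR p 0.00952), and over all samples left out in turn it ran from 0.73 to 1.10. The upstream promoter stretch printed for this gene is the one with the p53 element. Pericyte and smooth muscle markers summed to 21.99, 23.4 and 28.4 FPKM in vehicle and 48.2, 41.2 and 37.4 in STZ samples. This sum had the same order over the 6 samples as Cdkn1a. Endothelial markers summed to 15.5, 20.6 and 52.9 against 94.4, 73.8 and 47.5 FPKM. Their order was that of Cdkn1a apart from a swap of vehicle replicate 3 and STZ replicate 3. The part of these cells was not tested.

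Cdkn2d, an INK4 inhibitor (p19) of CDK4 and CDK6, had 31.6, 33.8 and 38.4 CPM in vehicle and 40.7, 41.2 and 44.9 CPM in STZ samples. All STZ values lay above all vehicle values, with a log2 fold change of 0.29 ± 0.0939, an edgeR p of 0.0158 and an adjusted p of 0.349, and 0.23 without vehicle replicate 1. Cdkn1b (p27), a Cip/Kip inhibitor of resting cells, had 2.98, 3.39 and 3.49 against 3.76, 4.30 and 4.36 CPM. Its groups did not overlap either, and its log2 fold change was 0.33 ± 0.184 (edgeR p 0.112), and 0.26 without that sample. Cdkn2c (p18) differed little, with 9.42, 9.52 and 10.4 against 10.1, 10.7 and 10.7 CPM and a log2 fold change of 0.10 ± 0.122, and 0.07 without it.

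Cdkn1c (p57) was the most variable of the 5. It had 64.4, 187.2 and 147.5 CPM in vehicle and 124.9, 83.4 and 137.8 CPM in STZ samples, and its log2 fold change of −0.21 ± 0.362 had a 95% interval of −1.05 to 0.64. The choroid plexus and ependymal marker sum, at 4296.6, 12122.5 and 12927.7 FPKM in vehicle and 8632.1, 7026.1 and 11801.4 in STZ samples, had the same order over the 6 samples apart from a swap of vehicle replicates 2 and 3 at the top, and its part in these values was not tested. Without vehicle replicate 1 the log2 fold change was −0.54 (edgeR p 0.0361), and without vehicle replicate 2 it was 0.11. In all, the STZ mean was higher in 4 of the 5 inhibitors, with a median log2 fold change of 0.29, or 0.23 without vehicle replicate 1. In 3 of the 5 all STZ samples lay above all vehicle samples, where 8.64% of all genes had this order. Apart from Cdkn1c, the inhibitors thus had higher STZ means beside the mitotic genes, with vehicle replicate 1 the lowest for 5 of 5 and 20 of 20 genes.

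**Figure D5:**
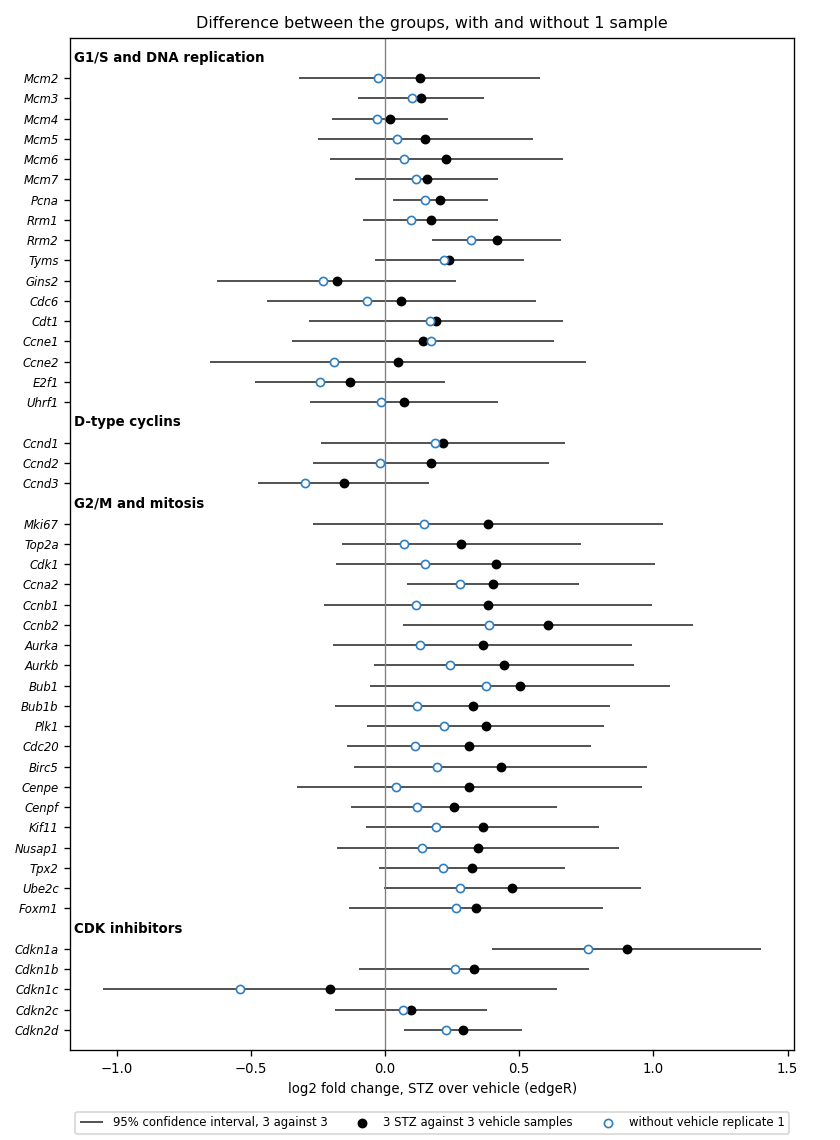
Filled points are edgeR log2 fold changes of STZ over vehicle for each of the 45 genes with 95% confidence intervals as bars, and open points are the same value without vehicle replicate 1. Among G2/M and mitosis genes the open points lie left of the filled ones but stay above 0, and the interval excludes 0 only for Ccna2 and Ccnb2 in this class, for Pcna and Rrm2 in G1/S, and for Cdkn1a and Cdkn2d among CDK inhibitors, before any adjustment.

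Leaving out vehicle replicate 1 did not change the count of calls, which was 0 of 45. Unadjusted, 5 members then had p under 0.05 with a higher STZ mean (Rrm2, Ccna2, Ccnb2, Cdkn1a and Cdkn2d), where 4.50% of all genes did, and 2 with a lower one (Ccnd3 and Cdkn1c), where 5.85% did. Members overlapping another annotated gene numbered 15, and 4 had a listed pseudogene.

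Further genes of the same steps gave a similar order of the classes by the median log2 fold change, but not by every measure. Of 50 more mitosis genes, 46 had a higher STZ mean, 9 had an unadjusted p under 0.05 with a higher mean and none with a lower one, and the median log2 fold change was 0.33, or 0.16 without vehicle replicate 1. Of 35 more replication genes, 28 had a higher STZ mean and 7 such a p, with a median of 0.15, or 0.105 without vehicle replicate 1. All STZ samples lay above all vehicle samples in 17 of the 50 mitosis genes and 14 of the 35 replication genes. Of all genes, 8.64% had this order. None of either list was called by edgeR. Of all tested genes, 51.9% had a higher STZ mean, and 5.63% had an unadjusted p under 0.05 with a higher mean. Hmgb2, a chromatin protein of cycling cells, had 64.8, 85.3 and 82.3 CPM in vehicle and 130.2, 123.9 and 106.3 CPM in STZ samples. Its groups lay well apart, with a log2 fold change of 0.63 ± 0.124, an edgeR adjusted p of 0.206 and a DESeq2 adjusted p of 0.00174, and a log2 fold change of 0.52 without vehicle replicate 1. Ncaph, a condensin subunit, had 6.96, 8.02 and 6.95 against 10.3, 10.3 and 11.5 CPM, with a log2 fold change of 0.55 ± 0.138 and 0.51 without vehicle replicate 1. Among replication genes Rfc5, a subunit of the clamp loader for Pcna, had a log2 fold change of 0.42 ± 0.121 and Gins1, of the helicase complex, 0.69 ± 0.204.

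Of 38 tested genes that control the cycle, such as CDKs, E2F and DREAM subunits and checkpoint kinases, 26 had a higher STZ mean. The share of all genes with a higher STZ mean was 51.9%. The median log2 fold change of the 38 was 0.06. An unadjusted p under 0.05 was found in 3 of them, all higher, where 5.63% of all genes had such a p with a higher mean. The 3 were Cdk4, the partner of D-type cyclins (0.23 ± 0.0755), its relative Cdk6 (0.44 ± 0.174) and Myc, a growth-promoting transcription factor (0.46 ± 0.14). Of 20 genes listed as p53 targets or with quiescence, 16 had a higher STZ mean and 4 such a p, all higher: Foxo1, Foxo3, Klf4 and Sesn1. Of these only Sesn1 is widely known as a p53 target, and the first 3 are transcription factors linked to quiescence. Klf4, also expressed in endothelium, had 2.15, 2.60 and 3.28 CPM in vehicle and 6.43, 7.64 and 3.73 CPM in STZ samples, with an edgeR adjusted p of 0.301 and a DESeq2 adjusted p of 0.0119. The other textbook p53 targets on the list had no unadjusted p under 0.05. Mdm2 (−0.11), Ccng1 (−0.17) and Phlda3 (−0.08) had log2 fold changes below 0, and the rest ran from 0.02 (Zmat3) to 0.50 ± 0.397 (Pmaip1), Bbc3, Eda2r, Fas and Btg2 included at 0.33, 0.33, 0.29 and 0.25.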

How the data were processed

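RNA sequencing of tdTomato+ astrocytes was analysed in 3 vehicle and 3 STZ samples, each a pool of 3 mice, grouped by the sample titles. Per the labels' processing notes, reads were handled with bcl2fastq 2.20.0, Trimmomatic 0.38, HISAT2 2.1.0, SAMtools 1.9 and StringTie 2.1.3b on mm10. Libraries were made from polyA RNA with a SMART-Seq kit per the labels. The authors deposited raw read counts for each gene, in whole numbers, which were tested here. The deposited FPKM values (per transcript length and mapped fragments) were used for levels between genes and for marker sums. The deposited TPM values were not used.

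Genes with a count in all 6 samples (22337) entered edgeR 4.0.16 (R 4.3.3), with TMM scaling, a two-sided quasi-likelihood test on group alone and Benjamini-Hochberg adjustment over them all. A call needed a fold change above 1.5 beside an adjusted p below 0.05. This leaves out genes seen in some samples only. CPM of genes are counts over the TMM-scaled sample total of the tested genes, and log2 CPM used a prior count of 2. Alternatives were DESeq2 1.42.0 (the tool named in the study's methods), its size factors in edgeR, no filter, filterByExpr, a replicate block and each sample left out. The scripts were tested on simulated data. At 52529048 to 58749115 counts per sample counting error is small for well-expressed genes, but for some members it is about as large as the spread of pools. Tables and motif searches used Python 3.11.15 and pandas 2.3.3. Gene coordinates, promoter windows and overlaps are from RefSeq on GRCm38.p6.

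The 45 genes, the classes and the further lists were chosen with earlier results of these data known, so their pattern is no independent support. All 45 are named, with 2 genes of the smallest p of each further list (Rfc5, Gins1, Hmgb2, Ncaph, Myc, Cdk4, Foxo1, Klf4) and the leading gene of each marker list. The leading genes were Aldoc for astrocytes, Stmn1 for neural stem cells and neuroblasts, Olig1 and Mbp for oligodendrocyte precursors and oligodendrocytes, C1qa for microglia, Cldn5 for endothelium, Pdgfrb for pericytes, Ttr for choroid plexus and Snap25 for neurons. Cdk6, Foxo3, Sesn1 and the p53 targets given by value are outside that rule and were picked after their values were seen.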

Additional observations from a re-analysis of the deposited data

How the results depend on the processing

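Genes called numbered 5 by edgeR, 234 by DESeq2, 7 with no filter on low counts or with filterByExpr, and between 0 and 1 with each sample left out. Of the 45 cell cycle genes, 0 were called by edgeR under every setting and 1 by DESeq2, which was Cdkn1a. Unadjusted, 6 had p under 0.05, and 4 to 9 over the alternatives. The replicate numbers in the titles did not pair the samples (correlations of same-numbered deviations −0.10, −0.16 and −0.18), and with the replicate block 0 genes and 0 of the 45 were called, with 6 of the 45 under 0.05.

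With each sample left out, the median log2 fold change of G2/M genes ran from 0.17 to 0.50, of G1/S genes from 0.04 to 0.21, of CDK inhibitors from 0.23 to 0.36 and of D-type cyclins from −0.0187 (without vehicle replicate 1) to 0.17. Of the 45 genes, 38 kept their direction under all 11 alternatives. The other 7 turned only with a sample left out: Mcm2 (−0.0255 to 0.31), Mcm4 (−0.0479 to 0.0619), Cdc6 (−0.0668 to 0.21), Ccne2 (−0.19 to 0.26), Uhrf1 (−0.0619 to 0.15), Ccnd2 (−0.0187 to 0.37) and Cdkn1c (−0.54 to 0.11). Without vehicle replicate 1, 6 turned, without STZ replicate 1, 4, and without vehicle replicate 2, 1. The cause was not tested. The number of pools, 3 per group, limits the precision, and for some members so does counting error.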

Other observations

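Of the other marker lists, oligodendrocyte markers summed to 206.0 to 632.6 FPKM in vehicle and 243.1 to 1025.5 in STZ samples, with Mbp highest in STZ replicate 1. Microglial markers summed to 156.9 to 229.5 against 154.1 to 229.4 FPKM, and neuronal markers to 7.62 to 10.8 against 7.50 to 14.3 FPKM, with Slc17a7 at 0 in at least 1 sample. Neu4, an oligodendrocyte precursor marker, was also at 0 in at least 1 sample. The G2/M genes were highest in STZ replicate 1 for 9 genes, in STZ replicate 3 for 9 and in STZ replicate 2 for 2, and in a vehicle sample for 0 of the 20.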
